A study of Mus musculus with 8 samples.

Results

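The 44 genes described here encode nucleolar proteins and assembly factors of the ribosome. They were picked by symbol for their role in the nucleolus, with no threshold on their values. All 44 were found by gene symbol among the 25239 genes of the deposited count table, and all 44 passed the filter on low counts, as did 15000 genes in all. RNA-seq libraries came from mouse kidney after ischemia-reperfusion (I/R), with 4 control libraries labelled WT (controls 1 to 4) and 4 from animals labelled myeloid-specific FoxO1-knockout (knockouts 1 to 4). Per the labels' protocols, knockout animals were Lyz2-CreERT2 FoxO1flox/flox mice of 8 to 10 weeks given tamoxifen (75 mg per kg) for 5 days. In all groups the right kidney was taken out and the left renal vessels were clamped for 35 minutes. The same protocol text stands with the control samples. Whether the controls carried Cre or received tamoxifen, and how long after reperfusion the kidneys were taken, is not given in the sources used here. Lyz2-driven Cre acts in myeloid cells, whereas the RNA is of collagenase-digested kidney, in which most cells are not myeloid. Nothing states that each library is from its own animal, so the spread that the p-values rest on, that between libraries of a group, may be technical.

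Ribosomes are built in the nucleolus. RNA polymerase I transcribes a long ribosomal RNA precursor, small nucleolar ribonucleoproteins (snoRNPs) modify it, and assembly factors fold, cut and pack it with ribosomal proteins into the small and the large subunit. Many genes of this pathway are known targets of the growth-promoting transcription factor MYC, and the pathway takes a large share of a growing cell's energy.

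Ribosome biogenesis genes were lower in the knockout kidneys. Of the 44, 22 fell, 0 rose and 22 did not pass the threshold, an adjusted p under 0.05 in edgeR's quasi-likelihood test over all 15000 genes. Among all genes tested, 6.28% were called lower and 6.45% higher; among the genes with a mean level in the range of the 44, from 9.04 to 226 CPM (counts scaled to the library's size), 7.41% were called lower. At an unadjusted p under 0.05, edgeR had 38 of the 44 lower and 0 higher, against 2190 and 2178 of all 15000 genes. DESeq2 called 29 lower and 0 higher, against 8.77% of all genes lower, and limma-voom called 22 lower and 0 higher, against 6.20%. The edgeR calls were all among those of DESeq2, and 21 of them were shared by the 3 tools.

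The sizes differed between genes. Called genes were 1.30-fold (Bop1) to 2.10-fold (Npm1) lower, and Npm1 was the 1 called gene past 2-fold. The log2 fold change, knockout over control, was below 0 for 43 of the 44 genes, with a median of -0.53. Over all genes tested the median was -0.01, with 51.2% of genes below 0. In 26 of the 44 genes every knockout library lay below every control library, against 10.6% of all genes; 0 of the 44 had the reverse order, against 11.1%. In bulk tissue, fewer cells of a type and less RNA per cell cannot be told apart. The number of called genes depended on single libraries, with 0 called higher each time. It was 10 without control 3, 11 without knockout 2, 10 without knockout 3 and 8 without knockout 4. In these fits 3.54%, 3.41%, 3.71% and 2.97% of all genes tested were called lower, in the same order. Without control 2 the number was 31 of the 44, against 6.47% of all genes tested.

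**Figure D1:**
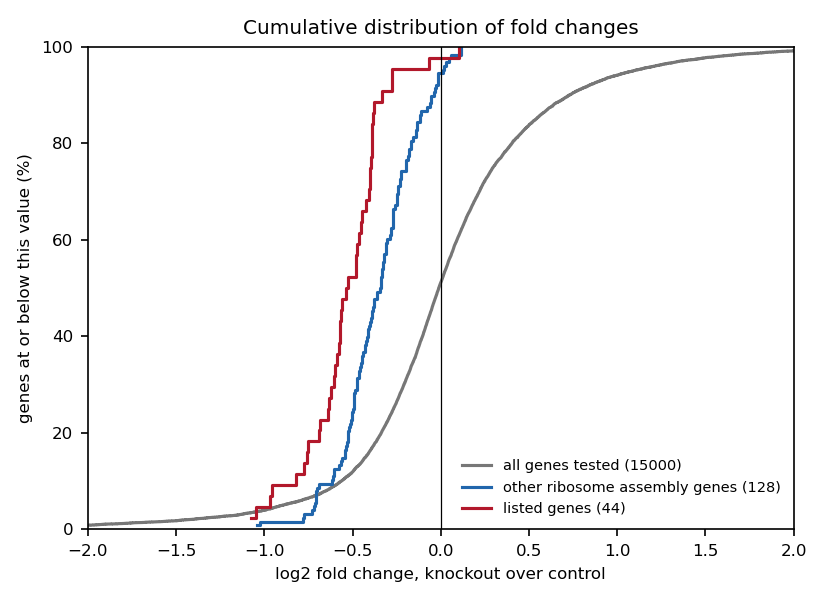
Cumulative distribution of log2 fold changes, knockout over control (x axis), with the percent of genes at or below each value (y axis), for the 44 listed genes, 128 other genes of ribosome assembly and all 15000 genes tested. Both curves of ribosome genes lie left of the curve of all genes over most of their course: their medians are -0.53 and -0.34, against -0.01.

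Library totals ran from 29044405 to 35530421 counts. The lowest value of any listed gene was 81 counts (Tsr1 in knockout 1) and the highest 14225. Foxo1, the targeted gene, had 34.5, 33.4, 32.995 and 33.9 CPM across controls 1 to 4, against 41.4, 41.001, 42.9 and 39.3 CPM across knockouts 1 to 4. Every knockout library was thus above every control, the reverse of a loss, without passing the threshold (log2 fold change 0.29, SE 0.09, adjusted p = 0.0647); RNA of the whole kidney does not check a deletion in myeloid cells. Kidney markers were present in all libraries, and many of them differed between the groups. Over all genes tested 6.28% were called lower and 6.45% higher. Of 13 injured tubule markers 10 fell and 0 rose, and their summed level was 15953 to 30619 CPM over the controls and 6294 to 7106 CPM over the knockouts. Immediate early genes, which respond to injury and to tissue handling, fell in 8 of 11, with sums of 520.3 to 776 CPM over the controls and 313 to 363 CPM over the knockouts. Neutrophil markers fell in 6 of 7 tested. The 8 in the count table summed to 27.7 to 178 CPM over the controls and 6.09 to 16.7 CPM over the knockouts. Markers of proliferating cells fell in 2 of 14 (329 to 457 CPM over the controls and 277 to 359 CPM over the knockouts). Of 11 macrophage and monocyte markers 2 fell and 0 rose (194 to 330.4 CPM over the controls and 213 to 359 CPM over the knockouts). One of them is Lyz2, the gene that the Cre is named for. It had 2.28, 50.4, 32.1 and 27.3 CPM across controls 1 to 4, against 46.9, 26.3, 0.367 and 25.4 CPM across knockouts 1 to 4. Control 1 and knockout 3 were thus far below the other libraries of their groups, and the cause was not tested. These libraries are left out together in a fit described at the end. Markers of the loop of Henle rose in 5 of 7 (2257 to 3846 CPM over the controls and 6399.5 to 7403 CPM over the knockouts), those of the distal nephron and collecting duct in 9 of 10 (599.5 to 1510.2 CPM over the controls and 2240.1 to 3036 CPM over the knockouts) and those of the proximal tubule in 2 of 12 (12757 to 27787 CPM over the controls and 28384 to 37898 CPM over the knockouts). Podocyte markers rose in 4 of 6 (349.8 to 451 CPM over the controls and 531 to 581 CPM over the knockouts) and endothelial markers in 2 of 8 (235 to 610.3 CPM over the controls and 618 to 727 CPM over the knockouts). None of 7 fibroblast markers (240.0 to 671 CPM over the controls and 543 to 881 CPM over the knockouts) and none of 5 lymphocyte markers tested passed in edgeR. The 7 lymphocyte markers in the count table summed to 1.91 to 8.29 CPM over the controls and 5.90 to 10.1 CPM over the knockouts. Of the fibroblast and the lymphocyte markers, 3 and 1 had an unadjusted p under 0.05 in edgeR, all higher. No marker found in the table was at 0 in all 8 libraries. The part of these shifts in the lower level of ribosome biogenesis genes was not tested.

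Among the nucleolar scaffold proteins and regulators 3 of 5 fell, with the lowest median log2 fold change of the role groups, -0.69. Of all genes tested 6.28% were called lower, and in 10.6% every knockout library lay below every control library. These shares also stand beside the counts and the groups without overlap described below. Npm1, which encodes nucleophosmin, a histone and ribosome chaperone that forms the outer layer of the nucleolus, had 308, 169, 247 and 180.0 CPM across controls 1 to 4, against 106, 88.3, 128 and 107 CPM across knockouts 1 to 4. Its highest knockout library lay below its lowest control library, and the fall was 2.10-fold (log2 fold change -1.07, SE 0.20, adjusted p = 0.00892 in edgeR). Npm1 has processed pseudogenes, with which it can share reads. Mybbp1a, a nucleolar protein that binds the transcription factor MYB and takes part in precursor processing, had 227, 164, 208 and 185 CPM across controls 1 to 4, against 99.4, 130.2, 129 and 129 CPM across knockouts 1 to 4, 1.61-fold lower (log2 fold change -0.69, SE 0.14, adjusted p = 0.0122). Knockout 1 was the low library, and the other 3 knockouts were level. Nolc1, a phosphoprotein that escorts snoRNPs between nucleolus and Cajal bodies, had 91.95, 63.4, 84.3 and 72.5 CPM across controls 1 to 4, against 59.4, 53.1, 59.1 and 54.9 CPM across knockouts 1 to 4, 1.38-fold lower (log2 fold change -0.46, SE 0.13, adjusted p = 0.0413). The groups of Nolc1 did not overlap either, but its call was lost without control 1, 3 or 4 or knockout 1, 2, 3 or 4 (adjusted p up to 0.117).

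Ncl and Ddx21 had log2 fold changes of like size with a wider spread and did not pass. Ncl, which encodes nucleolin, an abundant RNA-binding protein of the nucleolus, had 399.8, 189, 313 and 213 CPM across controls 1 to 4, against 147, 139, 219 and 186 CPM across knockouts 1 to 4. Controls 1 and 3 were high, knockout 3 lay above controls 2 and 4, and the difference did not pass (log2 fold change -0.69, SE 0.24, adjusted p = 0.0912). Ddx21, an RNA helicase of precursor transcription and processing, was at 105 ± 31.6 CPM on average over the controls and 67.2 ± 8.60 CPM over the knockouts (log2 fold change -0.64, SE 0.20, adjusted p = 0.0639).

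Of the RNA polymerase I subunits, 1 of 3 fell, against 6.28% of all genes tested, and 2 did not pass. Polr1b, the second largest subunit, had 40.3, 37.6, 43.5 and 48.9 CPM across controls 1 to 4, against 25.1, 29.9, 30.4 and 29.6 CPM across knockouts 1 to 4. The groups did not overlap, and the fall was 1.48-fold (log2 fold change -0.57, SE 0.12, adjusted p = 0.0148). Polr1a, the largest subunit, was at 46.04 ± 7.30 CPM on average over the controls and 35.4 ± 2.61 CPM over the knockouts (log2 fold change -0.38, SE 0.13, adjusted p = 0.0885), and Polr1c, a subunit shared with RNA polymerase III, at 74.3 ± 4.62 CPM on average over the controls and 61.3 ± 3.54 CPM over the knockouts (log2 fold change -0.28, SE 0.10, adjusted p = 0.0908). All 3 had an unadjusted p under 0.05 in edgeR, in the same direction, as did 2190 of all 15000 genes tested.

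Counts at the locus of the ribosomal RNA precursor did not pass. Rn45s, this locus in the count table, had 7833, 18298, 14661 and 9948 CPM across controls 1 to 4, against 14762, 9874, 14131 and 12700.5 CPM across knockouts 1 to 4. Controls 1 and 2 were thus the lowest and the highest of all 8 libraries. Between the groups its log2 fold change was 0.02 (SE 0.27, edgeR adjusted p = 0.970), with an exact two-sided permutation p of 0.886 on log2 CPM, where the smallest possible p is 0.0286. Its direction turned without control 1, control 4, knockout 1 or knockout 3. How ribosomal RNA was removed from these libraries is not given in the sources used here. The level of Rn45s depends on that step, so these values are a description and do not measure the level of the precursor. The regulators of polymerase I given here did not pass either: Ubtf, which packs active ribosomal DNA, was at 170.1 ± 4.08 CPM on average over the controls and 168 ± 11.8 CPM over the knockouts (log2 fold change -0.02, SE 0.10, adjusted p = 0.929), and Rrn3, which brings the polymerase to its promoter, at 43.6 ± 6.64 CPM on average over the controls and 39.8 ± 2.12 CPM over the knockouts (log2 fold change -0.13, SE 0.12, adjusted p = 0.523).

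The box C/D snoRNPs, which guide methylation of ribosomal RNA, had lower transcripts for 3 of their 4 listed proteins. Over all genes tested 6.28% were called lower. Fbl encodes fibrillarin, the methyltransferase. It had 116, 115, 105 and 117 CPM across controls 1 to 4, against 91.5, 86.5, 77.3 and 82.6 CPM across knockouts 1 to 4, 1.34-fold lower (log2 fold change -0.42, SE 0.10, adjusted p = 0.0221), with a narrow spread in both groups. Nop56, a core protein of the same particle, had 96.1, 61.1, 75.1 and 61.1 CPM across controls 1 to 4, against 46.5, 50.1, 46.3 and 49.6 CPM across knockouts 1 to 4, 1.52-fold lower (log2 fold change -0.61, SE 0.15, adjusted p = 0.0272). Rrp9, a protein specific to the U3 snoRNP that starts processing of the small subunit, had 58.1, 41.99, 53.1 and 46.3 CPM across controls 1 to 4, against 38.4, 39.4, 28.9 and 31.7 CPM across knockouts 1 to 4, 1.44-fold lower (log2 fold change -0.53, SE 0.14, adjusted p = 0.0398). In these 3 genes the groups did not overlap. Nop58, the partner of Nop56, had the lowest log2 fold change of the 4 but did not pass (log2 fold change -1.05, SE 0.34, adjusted p = 0.0729). Its control libraries had 56.04, 23.1, 45.6 and 24.6 CPM and its knockout libraries 12.2, 12.5, 27.6 and 19.9 CPM, so that knockout 3 lay above controls 2 and 4. The call of Fbl was lost without control 4 or knockout 2, 3 or 4 (adjusted p up to 0.0704), that of Nop56 without control 3 or knockout 1, 2, 3 or 4 (adjusted p up to 0.0740) and that of Rrp9 without control 1, 3 or 4 or knockout 2, 3 or 4 (adjusted p up to 0.116).

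Of the H/ACA snoRNP, which turns uridine into pseudouridine and has 4 core proteins, 2 fell, against 6.28% of all genes tested. Gar1 had 26.1, 19.96, 30.2 and 25.5 CPM across controls 1 to 4, against 17.3, 15.5, 14.2 and 13.5 CPM across knockouts 1 to 4, 1.68-fold lower (log2 fold change -0.75, SE 0.15, adjusted p = 0.0124). Dkc1, the pseudouridine synthase dyskerin, had 42.6, 16.7, 26.9 and 20.9 CPM across controls 1 to 4, against 13.1, 13.4, 16.1 and 12.1 CPM across knockouts 1 to 4, 1.96-fold lower (log2 fold change -0.97, SE 0.26, adjusted p = 0.0368). Control 1 was far above the other controls for Dkc1, and the gap between the groups was narrow, from control 2 to knockout 3. Nhp2 spread more among knockouts: its controls were level (218, 221, 224 and 201 CPM) and its knockouts ran from 196 CPM in knockout 1 to 109.7 CPM in knockout 4 (the groups did not overlap; log2 fold change -0.59, SE 0.17, adjusted p = 0.0533). Nop10 did not differ beyond its spread (150.5 ± 22.7 CPM on average over the controls and 144 ± 30.8 CPM over the knockouts; log2 fold change -0.07, SE 0.17, adjusted p = 0.831), and its direction turned without knockout 3 or knockout 4. The call of Dkc1 was lost without control 3 or knockout 1, 2, 3 or 4 (adjusted p up to 0.105).

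Among 13 assembly factors of the small subunit, 5 fell and 0 rose, against 6.28% and 6.45% of all genes tested. Utp14a, a nucleolar protein of the small subunit processome, had 20.6, 15.3, 16.1 and 13.4 CPM across controls 1 to 4, against 8.64, 10.9, 9.87 and 7.53 CPM across knockouts 1 to 4, 1.77-fold lower (log2 fold change -0.82, SE 0.18, adjusted p = 0.0174). Rrp12, which helps export of both precursor subunits, had 40.3, 30.9, 39.7 and 34.4 CPM across controls 1 to 4, against 24.2, 27.5, 24.4 and 24.1 CPM across knockouts 1 to 4, 1.45-fold lower (log2 fold change -0.54, SE 0.12, adjusted p = 0.0193). For both genes the lowest control was above the highest knockout. Utp4, a subunit of the early complex that binds the start of the precursor, had 55.1, 43.4, 54.7 and 52.2 CPM across controls 1 to 4, against 25.05, 39.6, 37.5 and 35.6 CPM across knockouts 1 to 4, 1.49-fold lower (log2 fold change -0.58, SE 0.15, adjusted p = 0.0359). Knockout 1 was the low library for Utp4. Bysl, which encodes the assembly factor bystin, had 55.4, 49.9, 59.1 and 60.1 CPM across controls 1 to 4, against 34.4, 42.1, 45.5 and 39.001 CPM across knockouts 1 to 4, 1.39-fold lower (log2 fold change -0.48, SE 0.12, adjusted p = 0.0265). Nob1, the nuclease that makes the last cut of the small subunit RNA, was at 53.8 ± 6.54 CPM on average over the controls and 40.5 ± 1.08 CPM over the knockouts, 1.33-fold lower (log2 fold change -0.41, SE 0.11, adjusted p = 0.0375). Utp4, Bysl and Nob1 had no overlap between the groups either. The call of Utp14a was lost without knockout 4 (adjusted p up to 0.0584), that of Rrp12 without control 3 or knockout 3 or 4 (adjusted p up to 0.0643), that of Utp4 without control 1, 3 or 4 or knockout 2, 3 or 4 (adjusted p up to 0.0911), that of Bysl without control 3 or 4 or knockout 2 or 4 (adjusted p up to 0.0814) and that of Nob1 without control 1, 3 or 4 or knockout 1, 2, 3 or 4 (adjusted p up to 0.107).

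The other 8 small subunit factors did not pass. Wdr43, a processome protein, came closest, with 63.3, 29.03, 48.1 and 37.5 CPM across controls 1 to 4, against 24.8, 24.8, 32.2 and 23.4 CPM across knockouts 1 to 4 (log2 fold change -0.76, SE 0.22, adjusted p = 0.0503); knockout 3 lay above control 2. Ddx10, a helicase, and Tsr1, a maturation factor of the late small subunit, had the largest standard errors of this group, with log2 fold changes of -0.78 (SE 0.36) and -0.63 (SE 0.49). Tsr1 ran from 6.41 to 22.8 CPM among controls and from 2.91 to 12.6 CPM among knockouts. The acetyltransferase gene Nat10, Nop14, Wdr75 and Heatr1 missed the threshold at log2 fold changes of -0.33, -0.39, -0.40 and -0.28 (edgeR adjusted p = 0.102, 0.108, 0.249 and 0.341). Utp20, a large scaffold protein, was the 1 gene of the 44 with a value above 0, at 50.9 ± 2.62 CPM on average over the controls and 54.7 ± 9.12 CPM over the knockouts (log2 fold change 0.10, SE 0.13, adjusted p = 0.646).

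Among 15 assembly factors of the large subunit, 8 fell and 0 rose, against 6.28% and 6.45% of all genes tested. All 15 were lower at an unadjusted p under 0.05 in edgeR, against 2190 of all 15000 genes tested. Pes1, Bop1 and Wdr12 form the PeBoW complex, which is needed to mature the large subunit RNA, and all 3 fell. Pes1 had 144, 131, 137 and 134 CPM across controls 1 to 4, against 85.7, 108, 91.3 and 82.1 CPM across knockouts 1 to 4, 1.49-fold lower (log2 fold change -0.57, SE 0.11, adjusted p = 0.0109). Wdr12 had 36.3, 26.4, 35.02 and 26.2 CPM across controls 1 to 4, against 18.4, 23.9, 19.6 and 18.7 CPM across knockouts 1 to 4, 1.54-fold lower (log2 fold change -0.62, SE 0.15, adjusted p = 0.0269). Bop1 had 81.5, 76.8, 84.05 and 78.5 CPM across controls 1 to 4, against 54.3, 61.4, 66.9 and 63.4 CPM across knockouts 1 to 4, 1.30-fold lower (log2 fold change -0.38, SE 0.10, adjusted p = 0.0341). The groups were apart in the whole complex, with the smallest change in Bop1. The call of Bop1 was lost without control 1, 3 or 4 or knockout 1, 2, 3 or 4 (adjusted p up to 0.0936) and that of Wdr12 without control 1 or 3 or knockout 1, 3 or 4 (adjusted p up to 0.0838), while Pes1 was called whichever of the 8 libraries was left out.

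Gnl3 had the largest called change of the large subunit group. It encodes nucleostemin, a nucleolar GTPase known from stem and growing cells, and had 55.9, 30.1, 45.4 and 32.3 CPM across controls 1 to 4, against 23.6, 18.97, 21.9 and 19.9 CPM across knockouts 1 to 4, 1.94-fold lower (log2 fold change -0.96, SE 0.20, adjusted p = 0.0130). Rrs1, which helps load the 5S ribosomal RNA particle, had 67.8, 65.4, 63.7 and 68.5 CPM across controls 1 to 4, against 46.5, 49.7, 48.2 and 49.5 CPM across knockouts 1 to 4, 1.37-fold lower (log2 fold change -0.45, SE 0.09, adjusted p = 0.0109). Both groups of Rrs1 were level, with a clear gap between them. Nop16, a nucleolar protein of the early large subunit, had 66.2, 62.5, 69.5 and 78.2 CPM across controls 1 to 4, against 53.5, 46.5, 44.5 and 41.8 CPM across knockouts 1 to 4, 1.48-fold lower (log2 fold change -0.57, SE 0.12, adjusted p = 0.0127). Ebna1bp2, an early assembly factor, had 111, 68.7, 91.6 and 76.4 CPM across controls 1 to 4, against 55.6, 60.7, 57.2 and 55.9 CPM across knockouts 1 to 4, 1.52-fold lower (log2 fold change -0.60, SE 0.15, adjusted p = 0.0265). Its knockouts were level, while controls 1 and 3 stood above controls 2 and 4. Wdr74 had 52.2, 47.5, 52.4 and 49.7 CPM across controls 1 to 4, against 41.9, 38.8, 32.3 and 31.3 CPM across knockouts 1 to 4, 1.40-fold lower (log2 fold change -0.48, SE 0.12, adjusted p = 0.0271). The groups did not overlap for any of these 5 genes. The other 7, the RNA methyltransferases Nop2 and Ftsj3, the GTPase Gtpbp4, the helicase Ddx18, Nip7, Nle1 and Rrp1, had log2 fold changes between -0.56 (Nle1) and -0.39 (Nip7) and did not pass. The calls of Ebna1bp2 and Wdr74 were lost without control 3 or knockout 1, 2, 3 or 4 (adjusted p up to 0.0789) and without control 3 or 4 or knockout 2, 3 or 4 (adjusted p up to 0.0865), respectively; Gnl3, Rrs1 and Nop16 were called whichever library was left out.

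**Figure D2:**
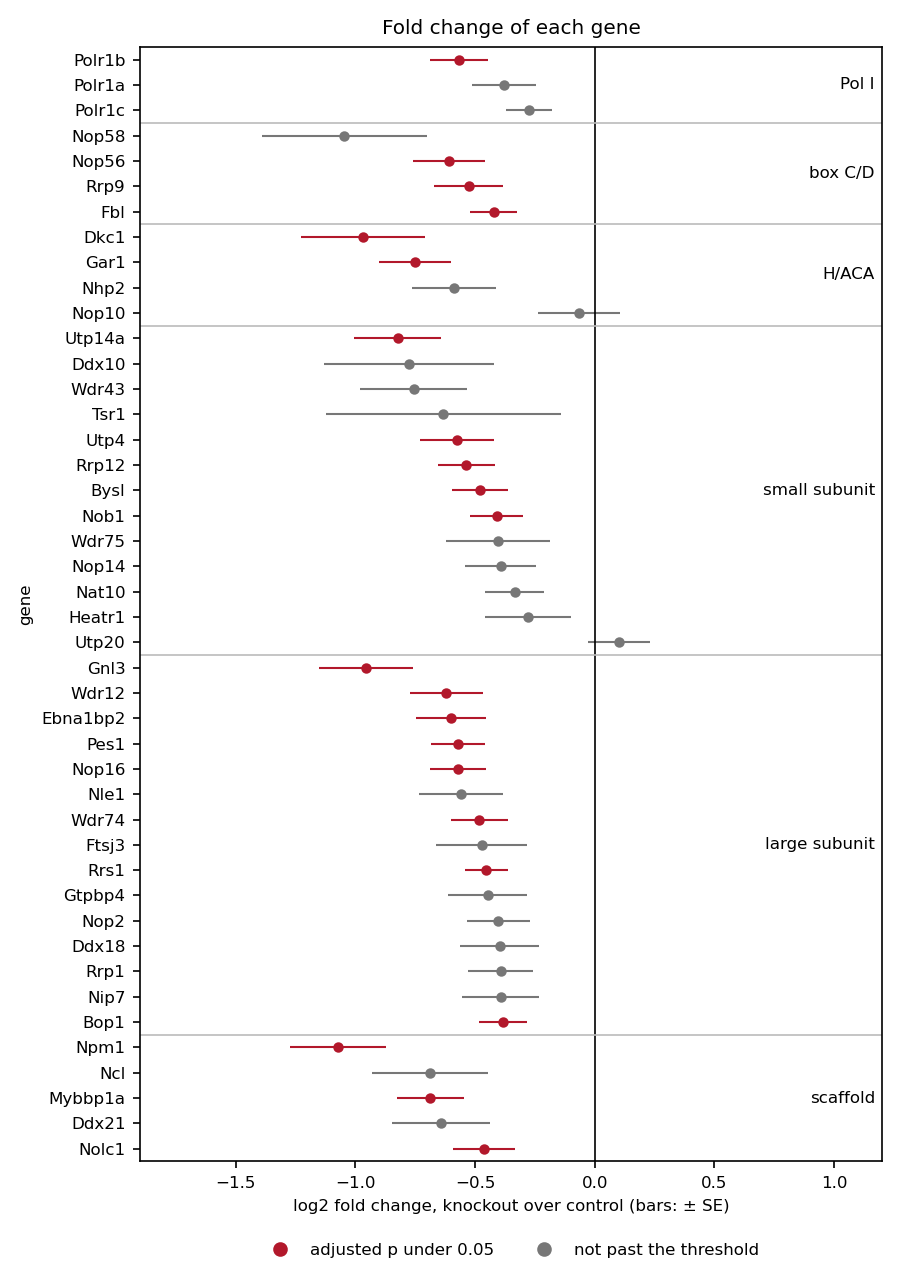
Log2 fold change of each of the 44 genes, knockout over control (x axis), as points with bars of ± 1 SE, sorted within role groups (y axis); red points passed an adjusted p under 0.05. Of the 44 points 43 lie left of 0, with Npm1 (-1.07) at the low end and Utp20 (0.10) at the high end.

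For most of the genes the controls were more spread than the knockouts. The ratio of the highest to the lowest library was larger in controls than in knockouts for 33 of the 44 genes, with medians of 1.47 and 1.29. The mean log2 CPM over the 44 genes was 6.01, 5.49, 5.88 and 5.65 in controls 1 to 4 and 5.12, 5.28, 5.32 and 5.19 in knockouts 1 to 4. Control 1 was the highest control for 28 genes and control 2 the lowest for 35. Neither these counts nor the ratios above were computed over all genes tested, so they do not set the 44 genes apart. In 34 of the 44 genes controls 1 and 3 both lay above controls 2 and 4, an order seen in 31.2% of all genes tested. The correlation of deviations from the group means over the 8 libraries had a median of 0.52 over the 946 pairs of the 44 genes, with 79.4% of pairs above 0. Over all pairs of the 15000 genes tested the median was -0.001, with 49.9% above 0. All pairs share the same libraries, and genes are not independent replicates. The mean log2 level of the injured tubule markers was 8.81, 7.97, 8.46 and 7.89 in controls 1 to 4, also highest in controls 1 and 3. Not all marker lists shared this order. Proximal tubule markers were at 8.52, 9.58, 9.125 and 9.81 in controls 1 to 4, lowest in controls 1 and 3. Fibroblast markers, at 4.795, 5.86, 4.66 and 5.97, were also lowest there. The pairs of controls left out below were chosen after these values were seen. Leaving out the high controls makes most falls smaller by construction, and leaving out the low ones makes them larger. Without controls 1 and 3 together, 8 of the 44 genes were called lower, 0 higher, against 3.49% of all genes tested called lower. The median log2 fold change of the 44 was -0.34 in that fit. Npm1 was then at -0.70, Gnl3 at -0.57, Dkc1 at -0.46, Ebna1bp2 at -0.34, Nop56 at -0.35, Wdr12 at -0.39, Nolc1 at -0.27 and Nob1 at -0.26 on the log2 scale. Without controls 2 and 4 together, 35 of the 44 were called lower, against 9.24% of all genes tested, and the median was -0.64.

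**Figure D3:**
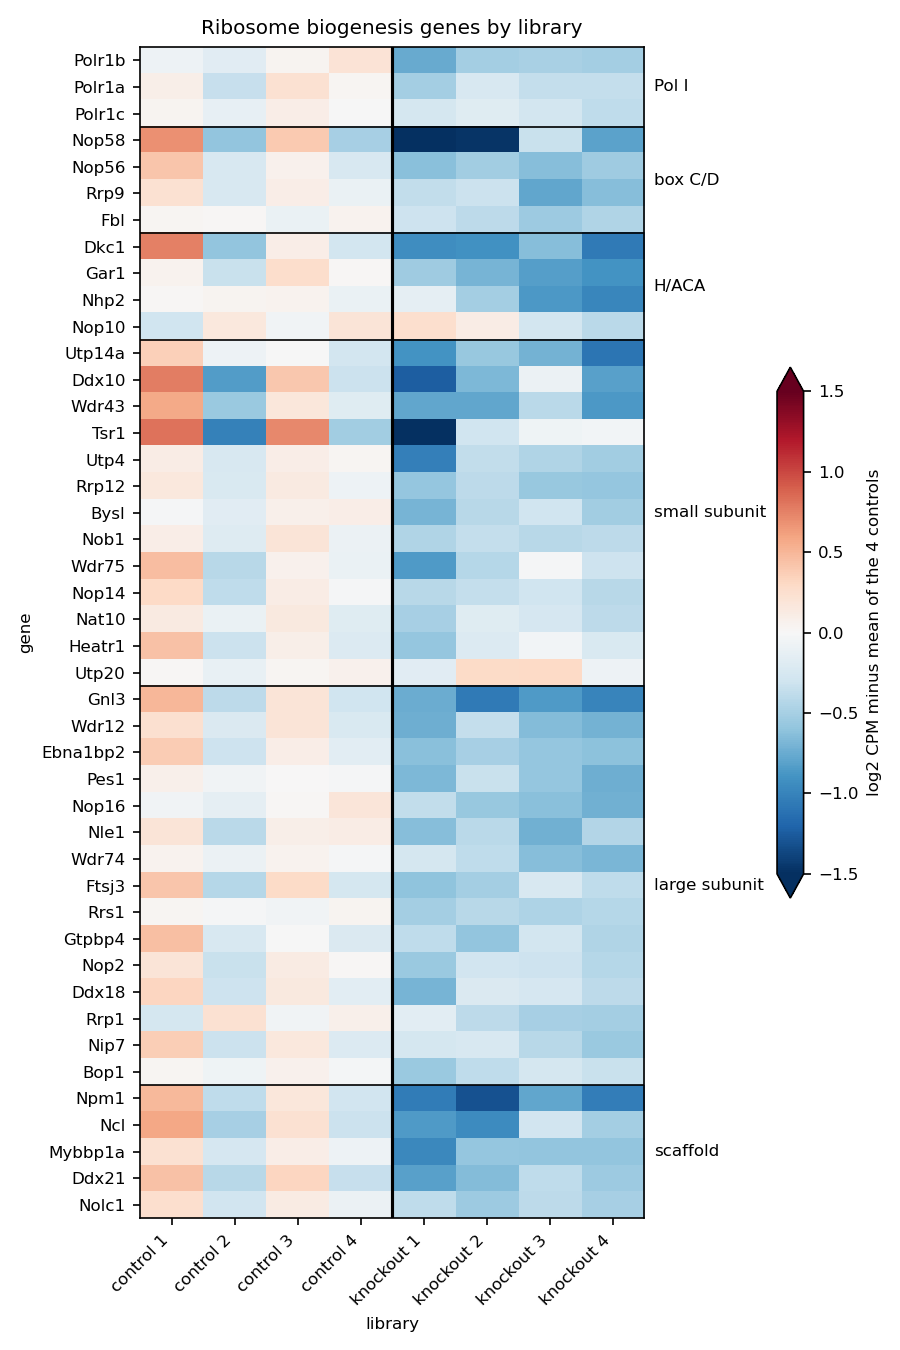
Heat map of the 44 genes (rows, by role group) in the 8 libraries (columns); colour gives log2 CPM minus the mean of the 4 controls, blue for lower and red for higher. In 26 rows every knockout library lies below every control library, and in 34 rows controls 1 and 3 both lie above controls 2 and 4.

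Levels between genes can be compared only per length. As RPKM, that is CPM per kilobase of the deposited gene length, computed here from the counts, the control means ran from 3.39 ± 1.59 (Ddx10) to 204 ± 30.7 RPKM (Nop10; SD, n = 4 each). Nhp2 followed at 194 ± 9.25, Npm1 at 131 ± 37.6, Rrp1 at 118 ± 16.8 and Fbl at 97.7 ± 4.59 RPKM. Neighbours in this order lay within their spread of each other for Nop10 and Nhp2 and for Npm1 and Rrp1. In knockouts Nop10 was at 195 ± 41.7, Nhp2 at 129 ± 35.1 and Npm1 at 62.5 ± 9.50 RPKM. The H/ACA particle had Nop10 and Nhp2 far above Gar1 (20.03 ± 3.32 RPKM) and Dkc1 (8.99 ± 3.81 RPKM) in controls. The deposited length of Ncl, 8257 bases, is long beside the median of the 44 genes, 2662 bases, and lowers its RPKM.

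Other genes of ribosome assembly, not among the 44, were counted by lists. Of 128 such genes 24 fell, 0 rose and 104 did not pass in edgeR. At an unadjusted p under 0.05, 68 of the 128 were lower and 0 higher, against 2190 and 2178 of all 15000 genes. Of the 128, 121 were below 0, with a median log2 fold change of -0.34. Over all genes tested 6.28% were called lower and 6.45% higher, and 51.2% were below 0. The share of 6.28% is also the one to set beside each list below. The 47 large subunit factors had 8 that fell, among them Eif6, which keeps the large subunit from joining too early, and Ppan. Eif6 had 454, 352, 409 and 414 CPM across controls 1 to 4, against 215, 209, 201 and 164 CPM across knockouts 1 to 4, 2.06-fold lower (log2 fold change -1.04, SE 0.13, adjusted p = 0.00174). All 4 knockouts were under the lowest control of Eif6, and Ppan fell 1.65-fold (edgeR adjusted p = 0.00826). Of 42 small subunit factors 9 fell, with Noc4l (1.71-fold lower) and Wdr46 (1.48-fold lower) at the smallest p (edgeR adjusted p = 0.00276 and 0.00714). Noc4l was at 34.2 ± 3.17 CPM on average over the controls and 19.97 ± 0.245 CPM over the knockouts. Of 13 other genes of the polymerase I machinery 2 fell, Polr1e (1.43-fold) and Polr1d (1.44-fold; edgeR adjusted p = 0.0362 and 0.0447). Of 11 snoRNP and snoRNP assembly genes 2 fell, Nufip1 (1.66-fold) and Ruvbl2 (1.31-fold; edgeR adjusted p = 0.00850 and 0.0324). Of 15 genes of the RNA exosome, which trims ribosomal RNA ends, and its cofactors 3 fell, with Exosc1 (1.52-fold) and Exosc3 (1.39-fold) at the smallest p (edgeR adjusted p = 0.0237 and 0.0301). Calls of Polr1e, Polr1d, Ruvbl2, Exosc1 and Exosc3 were each lost when single libraries were left out: Polr1e without control 1, 3 or 4 or knockout 1, 3 or 4 (adjusted p up to 0.106), Polr1d without control 1, 3 or 4 or knockout 2, 3 or 4 (adjusted p up to 0.125), Ruvbl2 without control 1, 3 or 4 or knockout 2, 3 or 4 (adjusted p up to 0.100), Exosc1 without control 3 or knockout 3 or 4 (adjusted p up to 0.0765) and Exosc3 without control 3 or 4 or knockout 2, 3 or 4 (adjusted p up to 0.0951).

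Myc was lower by more than any of the 44 genes. It had 102, 47.9, 91.6 and 57.7 CPM across controls 1 to 4, against 21.1, 28.6, 29.9 and 28.5 CPM across knockouts 1 to 4, 2.77-fold lower (log2 fold change -1.47, SE 0.24, adjusted p = 0.00486 in edgeR). Controls 1 and 3 were the high libraries here as well, and the lowest control was above the highest knockout. Without controls 1 and 3 together the log2 fold change of Myc was -0.97. Of the 11 genes of MYC and its partners, 1 other passed: Mxd4, a protein of the MAX network that acts against MYC, rose. Mxd4 had 32.2, 36.9, 31.8 and 28.9 CPM across controls 1 to 4, against 48.6, 42.2, 45.3 and 50.7 CPM across knockouts 1 to 4, 1.44-fold higher (log2 fold change 0.52, SE 0.11, adjusted p = 0.0165), and lost its call without control 3 or knockout 4 (adjusted p up to 0.0594). Whether Myc had a part in the level of the 44 genes was not tested.

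**Figure D4:**
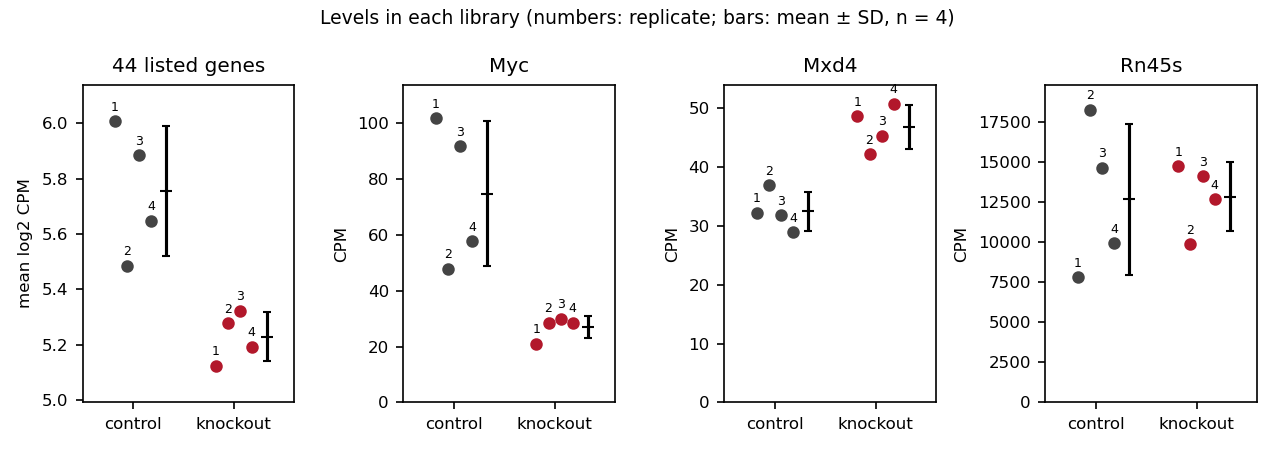
Level in each library (points, with the replicate number) and mean ± SD of the group (bars, n = 4) for the mean log2 CPM of the 44 genes and for Myc, Mxd4 and Rn45s in CPM. The panels of the 44 genes and of Myc have controls 1 and 3 above controls 2 and 4 and all knockouts below; Mxd4 has all knockouts above the controls, and Rn45s overlaps.

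MYC with MAX binds the E-box CACGTG, so promoters of the 44 genes were searched for it as a description. RefSeq promoter windows of the assembly GRCm38.p6 (250 bases before to 50 after the start) were matched by symbol for 39 of the 44 genes. The motif reads the same on both strands. It was found in 8 of the 39 (20.5%), against 11.3% of 11818 tested genes and 8.09% of all 27025 genes with such a window. Of the 106 other assembly genes with a window 19 (17.9%) held it, a share near that of the 44. Of the genes by call, 3 of 17 called genes with a window (17.6%) and 5 of 22 others (22.7%) held it. The matches lay close to the start. In 7 of the 8 the motif began within the first 50 bases after it, at base 3 in Pes1, 16 in Utp4, 18 in Wdr43, 24 in Nle1, 25 in Tsr1, 38 in Utp20 and 41 in Mybbp1a; in Nop2 it began 60 bases before. Among all tested genes 211 of 1588 matches (13.3%) fell in those 50 bases, and among the 128 other assembly genes 9 of 24 (37.5%). The 30 bases around each match are shown to let the flanks be compared, 5′ to 3′ along the gene, with the E-box in capitals.
Pes1: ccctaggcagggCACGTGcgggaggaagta
Utp4: tgcgcaagcgcgCACGTGgggccggggcgg
Mybbp1a: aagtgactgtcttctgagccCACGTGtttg
Wdr43: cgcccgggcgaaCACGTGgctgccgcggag
Nle1: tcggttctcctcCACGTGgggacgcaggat
Tsr1: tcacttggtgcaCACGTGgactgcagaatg
Utp20: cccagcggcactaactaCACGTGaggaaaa
Nop2: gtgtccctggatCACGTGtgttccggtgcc

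In GRCm38.p6 the window of Pes1 is chr11:3963965-3963994 on the plus strand, that of Utp4 chr8:106893643-106893672 on the plus strand, that of Mybbp1a chr11:72441347-72441376 on the plus strand and that of Wdr43 chr17:71616220-71616249 on the plus strand. The window of Nle1 is chr11:82908355-82908384 on the minus strand, that of Tsr1 chr11:74898092-74898121 on the plus strand, that of Utp20 chr10:88826765-88826794 on the minus strand and that of Nop2 chr6:125131811-125131840 on the plus strand. The first 3 belong to genes that fell, and Utp20 is the gene with a value above 0. The other 4 motifs searched, on both strands, were CCAAT (33.3% of the 39 genes and 42.1% of tested genes), the ETS core GGAAGT (56.4% and 31.1%), CGCGAG (30.8% and 22.2%) and TATAAA (5.13% and 9.30%). In the other assembly genes with a window the shares were 37.7%, 58.5%, 21.7% and 8.49%, in the same order. The median GC content of the windows was 58.0% for the 39 genes and 60.3% for tested genes. These matches describe letters in a window, not binding, and no binding was measured.

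Reads of some listed genes may be mixed with those of a gene on the other strand, because the NEBNext Ultra RNA kit, which the protocol names, keeps no strand information; their values are uncertain to that extent. In GENCODE M21, exons of Bysl overlap Ccnd3 by up to 361 bases, those of Mybbp1a overlap Spns2 by 131, those of Tsr1 overlap Srr by 616 and those of Utp14a overlap 9530027J09Rik by 398. Spns2 fell as well (log2 fold change -0.94, edgeR adjusted p = 0.00681). Its mean was 265 CPM over the controls and 138 CPM over the knockouts, against 196 and 122 CPM for Mybbp1a. For Ccnd3 the log2 fold change was 0.33 and for Srr 0.52, opposite in sign to Bysl and Tsr1, and neither passed (edgeR adjusted p = 0.256 and 0.0967). Exons of Dkc1 overlap Mpp1 by 45 bases, and Mpp1 fell too (log2 fold change -0.65, edgeR adjusted p = 0.0171). The mean of Mpp1 was 426 CPM over the controls and 271 CPM over the knockouts, far above the 26.8 and 13.7 CPM of Dkc1. Shorter overlaps with measured genes, of 5 to 50 bases, were found for Nop56, Nhp2, Bop1, Gnl3 and Nle1. Nop14, Pes1, Gtpbp4 and Polr1a overlap annotated genes that have no symbol in the count table, by 102 to 261 bases.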

How the data were processed

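Raw counts, whole numbers with a length for each gene, were deposited for 8 kidney libraries. HISAT2 2.2.1, Salmon 1.10.2, Trim Galore 0.6.2, FastQC and the build mm39 are named, without roles, per the submitters' processing notes. The sources used here do not give the counting step or its annotation. Among counts from 1 to 20, 68.7% to 70.9% per library were even, against 49.5% to 50.4% of counts over 100. Genes were taken by symbol. The test was edgeR 4.0.16 (R 4.3.3): filterByExpr (minimum count 10), TMM, quasi-likelihood fit over 8 libraries without covariates, Benjamini-Hochberg over 15000 genes, threshold 0.05. The fit was tested on simulated data, where it called a minority of the changed genes, so that a gene not called may still differ. CPM use TMM factors, means are ± SD with n = 4, and log2 CPM use a prior count of 2. Standard errors (SE) come from the F statistic. DESeq2 1.42.0, limma 3.58.1 voom, other scalings and filters, a replicate block, length and GC trends and left-out libraries were alternatives.

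The 44 genes, the other lists and the tests were chosen with earlier results of these data known, so no list was tested as a list. Values per library are given for up to 20 called genes of largest change and the smallest p of each role group. Myc, Rn45s, Ubtf, Rrn3, Foxo1 and the 2 genes of smallest p of each other pathway list are named by the same rule; the motifs, and other genes given with values, were picked after values were seen. Promoters and GENCODE M21 are of GRCm38, not mm39, and were matched by symbol.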

Additional observations from a re-analysis of the deposited data

Results flagged for a closer look

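A library standing far from the other 3 of its group, by Dixon's test on log2 CPM, was found in 5 of 100 group values screened; chance gives about 1 in 20. In 4 of the 5 it was knockout 1. It was at 99.4 CPM for Mybbp1a (others 128.7 to 130.2), at 25.1 CPM for Polr1b (others 29.6 to 30.4), at 2.91 CPM for Tsr1 (others 10.5 to 12.6) and at 21.1 CPM for Myc (others 28.5 to 29.9). The fifth was knockout 2 at 27.5 CPM for Rrp12 (others 24.1 to 24.4). Knockout 1 had the smallest total, 29044405 counts.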

How the results depend on the processing

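Under 19 alternatives the median log2 fold change of the 44 genes ran from -0.64 to -0.34 and 0 genes were called higher. The count called lower was 22 with TMM and 22 or 23 with other scalings or filters, 29 with DESeq2, 22 with limma-voom and 28 with length and GC trends removed. Leaving out 1 library gave 8 to 31 of the 44 and 907 to 1984 genes over the whole table, against 1909. Without control 1 and knockout 3 together the counts were 7 and 1045, without controls 1 and 3 together 8 and 1144, and without controls 2 and 4 together 35 and 3038 (the last 2 chosen after seeing the data). In these fits, in the same order, 3.3%, 3.49% and 9.24% of all genes tested were called lower. DESeq2 called 3013 genes in either direction. Of the 22 calls, 8 held in every fit without 1 library and 3 (Npm1, Gnl3 and Polr1b) under all 19 alternatives, as did Myc. Replicate block: with the label's replicate number as a block, 3 of the 44 were called lower, against 2.79% of all genes tested. In that fit 865 genes over the whole table were called in either direction. Deviations of same-numbered libraries correlated at -0.198, 0.036, 0.153 and -0.161, and no library correlated best with its own number. With 4 libraries in each group, these values cannot decide whether the numbers pair the libraries.

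Directions that turned belonged to genes that were not called, and the cause was not tested. Leaving out 1 library put Rn45s between -0.15 (without control 1) and 0.25 (without control 2), Nop10 between -0.186 and 0.0326 (without knockout 4) and Ubtf between -0.0447 and 0.0309 (without knockout 3) on the log2 scale. Without control 1 and knockout 3 together Rn45s was at -0.20 and Ubtf at 0.0281. Without controls 1 and 3 together Rn45s was at -0.14, Heatr1 at 0.0092, Tsr1 at 0.31 and Rrn3 at 0.0442, and without controls 2 and 4 together Nop10 was at 0.12. Each of the 44 genes had at least 81 counts in each library, and the number of libraries, 4 in each group, limits the precision.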
